A study of Mus musculus with 10 samples.

Results

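The urea cycle and periportal nitrogen genes were examined as a set of 10, namely Cps1, Otc, Ass1, Asl, Arg1, Nags, Slc25a13, Slc25a15, Gls2 and Glud1. They were found by their exact gene symbol among the 55421 gene identifiers of the count table, each matched 1 identifier, and all 10 were among the 22449 genes tested. In the urea cycle, hepatocytes turn ammonia and the nitrogen of amino acids into urea, which the kidney excretes. The reactions begin in mitochondria and end in the cytosol, so that the pathway also needs carriers for its intermediates, and its enzymes are found mostly in the periportal hepatocytes that meet portal blood first. Pericentral hepatocytes take up the ammonia that remains and fix it as glutamine.

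RNA from whole livers of 10 male C57BL/6 mice was read by poly(A) RNA-seq. The histone variant H3.3 is encoded by H3f3a and H3f3b, and 4 mice with both genes floxed received AAV8 Tbg-Cre (H3.3 KO), a virus in which the hepatocyte promoter Tbg drives Cre recombinase. The controls were 3 wild-type mice given AAV8 Tbg-Cre (WT Cre) and 3 floxed mice given AAV8 Tbg-MCS, which carries no Cre (MCS). The virus was given at an age of 6 months, and livers were collected after 3 weeks. Because Tbg acts in hepatocytes, the other cells of a KO liver keep their H3.3 genes. In the genotype field of the labels the floxed animals read HIRA, whereas titles and design text name H3f3a and H3f3b, and the titles were followed. Libraries held 14998426 to 26096141 counts, KO 1 being the shallowest. Levels are given as CPM, counts scaled to TMM-adjusted library sizes.

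The targeted transcripts followed the titles. H3f3a stood at 16.0 to 19.0 CPM in KO livers and 59.9 to 63.7 in controls, and H3f3b at 39.8 to 56.7 against 136 to 204. Hira, which the genotype field names, was at 6.26 to 6.68 CPM in KO livers and 5.48 to 8.71 in controls (log2 fold change -0.14, edgeR adjusted p = 0.477). Of 10 hepatocyte markers 9 were measured, none was at 0 in any liver, and their summed level was 111017 to 169010 CPM in controls and 82516 to 100003 in KO livers. Tf was not analysed here.

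Against the 6 pooled controls, 6 of the 10 genes were lower in H3.3 KO livers at an edgeR adjusted p under 0.05 and none was higher. They were Arg1, Slc25a13, Asl, Gls2, Ass1 and Otc. Of all genes tested, 16.6% were called lower and 19.7% higher. Arg1 alone also passed a log2 fold change of 1, as 5.79% of all genes did in the lower direction. Cps1, Nags, Slc25a15 and Glud1 did not pass. The median log2 fold change was -0.49 over the 10 genes and -0.0030 over all genes tested. At an unadjusted p under 0.05, 7 genes were lower and none higher, beside 21.3% of all genes lower and 24% higher. DESeq2 also called 7 lower and none higher, beside 16.6% lower and 20.5% higher of the genes it gave an adjusted p. With libraries scaled by size only, 5 of the 10 were lower, beside 2172 of all 22449 genes tested instead of 3726. Of all calls, 72.2% were then in the higher direction instead of 54.3%. In these bulk livers, fewer hepatocytes and less RNA per hepatocyte cannot be told apart.

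**Figure D1:**
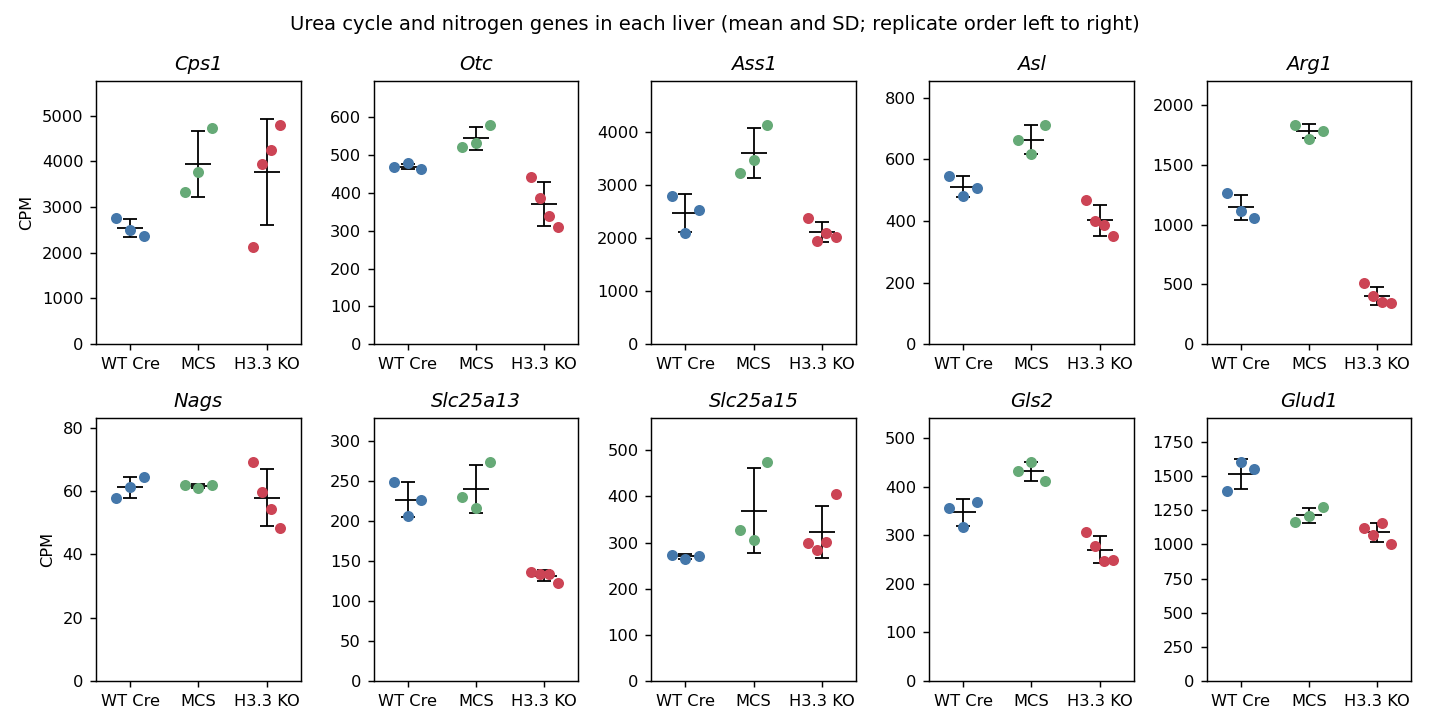
Expression (CPM, linear axes from 0) of the 10 genes in each of the 3 WT Cre, 3 MCS and 4 H3.3 KO livers, with the mean and SD of each group as bars. The 4 KO livers lie at 348 to 509 for Arg1, below all controls, whereas for Cps1 they spread from 2120 to 4797 across the control range.

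Carbamoyl phosphate synthetase, encoded by Cps1, joins ammonia and bicarbonate in the mitochondria and sets the entry of nitrogen into the cycle. Its CPM was 2765, 2495 and 2364 in the WT Cre livers, 3321, 3769 and 4731 in the MCS livers, and 2120, 3942, 4246 and 4797 in the KO livers. KO 1 was the lowest of all 10 livers and KO 4 the highest, so the groups overlapped over the whole control range. The log2 fold change was 0.22 ± 0.239 (SE, n = 4 and 6, edgeR adjusted p = 0.514).

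Nags makes N-acetylglutamate, without which the Cps1 enzyme is inactive. Its levels were 57.7, 61.4 and 64.4 CPM in WT Cre, 61.9, 60.9 and 61.8 in MCS, and 69.3, 59.6, 54.4 and 48.3 in KO livers. KO 1 lay above all controls and KO 3 and KO 4 below them. The log2 fold change was -0.084 ± 0.10 (edgeR adjusted p = 0.554). A change of sign with the scaling of libraries is given in the closing part.

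Ornithine transcarbamylase (Otc) adds carbamoyl phosphate to ornithine and forms citrulline in the mitochondria. It was read at 468, 478 and 463 CPM in WT Cre livers, 520, 531 and 580 in MCS livers and 442, 388, 340 and 310 in KO livers. Every KO liver lay below every control. Otc fell to 73.0% of the control level (log2 fold change -0.45 ± 0.122, edgeR adjusted p = 0.0111), and with the replicate number as a block the adjusted p was 0.0577. Against MCS alone, its call was lost with limma on FPKM values (adjusted p 0.0510 to 0.0535).

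The cytosolic enzymes Ass1 and Asl join citrulline to aspartate, which brings in the second nitrogen, and split the product into arginine and fumarate. Ass1 was at 2787, 2087 and 2521 CPM in WT Cre livers, 3218, 3458 and 4124 in MCS livers and 2367, 1945, 2089 and 2023 in KO livers. KO 1 and KO 3 lay above the lowest WT Cre liver, while all 4 KO livers were below the MCS livers. Ass1 was lower by the pooled comparison (log2 fold change -0.53 ± 0.174, edgeR adjusted p = 0.0307). That call was lost when KO 2, KO 3, KO 4 or any MCS liver was left out (adjusted p 0.0538 to 0.0910), with the replicate block (0.0890), with library size only (0.0765) and with limma on FPKM values (0.163 to 0.170).

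Asl had 546, 480 and 508 CPM in WT Cre, 661, 618 and 712 in MCS and 469, 400, 386 and 351 in KO livers. The KO livers were below all controls, KO 1 coming closest at 469 against 480 CPM in WT Cre 2. The log2 fold change was -0.55 ± 0.137 (edgeR adjusted p = 0.00708), or 68.4% of the control level.

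Arginase 1 (Arg1) splits arginine into urea and ornithine and closes the cycle. The gene lies on the minus strand at chr10:24915221-24927484 of mm10. Its CPM was 1264, 1119 and 1053 in WT Cre livers, 1836, 1719 and 1789 in MCS livers and 509, 405, 351 and 348 in KO livers. The highest KO liver held less than any control, and the control kinds were also apart from each other. Arg1 fell to 27.5% of the control level (log2 fold change -1.86 ± 0.200, edgeR adjusted p = 2.35e-05), the largest change among the 10 genes. Over the alternatives tried, its log2 fold change ran from -1.99 to -1.66.

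The mitochondrial carriers of the pathway differed from each other. Slc25a13 (citrin) exports aspartate from mitochondria in exchange for glutamate and so supplies the substrate of Ass1, and its gene is on the minus strand at chr6:6041218-6217173 of mm10. It was at 249, 206 and 226 CPM in WT Cre livers, 230, 216 and 274 in MCS livers and 137, 134, 134 and 122 in KO livers. The KO livers lay close together and far under every control, and the fall to 56.4% (log2 fold change -0.83 ± 0.104, edgeR adjusted p = 7.27e-05) was the second largest of the 10 genes.

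Slc25a15, which exchanges cytosolic ornithine for mitochondrial citrulline, had 273, 265 and 271 CPM in WT Cre livers, 327, 305 and 475 in MCS livers and 300, 283, 300 and 406 in KO livers. MCS 3 and KO 4 stood above the rest, and the remaining KO livers fell between the WT Cre livers and MCS 1. Its log2 fold change was 0.013 ± 0.172 (edgeR adjusted p = 0.965).

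Gls2 and Glud1 release ammonia inside mitochondria, from glutamine and from glutamate. Gls2 stood at 357, 316 and 369 CPM in WT Cre, 432, 452 and 412 in MCS and 307, 279, 247 and 248 in KO livers. All KO livers were lower than all controls, and the gene fell to 69.4% (log2 fold change -0.53 ± 0.124, edgeR adjusted p = 0.00492). Spryd4 overlaps Gls2 on the opposite strand with counts of 6.84% to 10.4% of those of Gls2, and the strand setting of the counting is not given in the sources used here.

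Glud1 was read at 1394, 1608 and 1554 CPM in WT Cre livers, 1163, 1211 and 1271 in MCS livers and 1123, 1068, 1160 and 1004 in KO livers. The KO livers were below all controls, but the margin between KO 3 and MCS 1 was only 1160 against 1163 CPM. The log2 fold change of -0.33 ± 0.123 did not pass (edgeR adjusted p = 0.0527), and it did so with DESeq2 (adjusted p = 0.0295). Glud1 was the only one of the 10 genes for which all WT Cre livers lay above all MCS livers.

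For 6 of the 10 genes (Otc, Asl, Arg1, Slc25a13, Gls2 and Glud1) every KO liver was below every control, and for none was every KO liver above. Of all genes tested, 12% showed the first pattern and 12.5% the second. Within the KO group, KO 1 was the highest liver for 7 of the 10 genes and the lowest for 1 (Cps1), and KO 4 was the lowest for 6. KO 1 was also the shallowest library, and its part in this order was not tested.

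**Figure D2:**
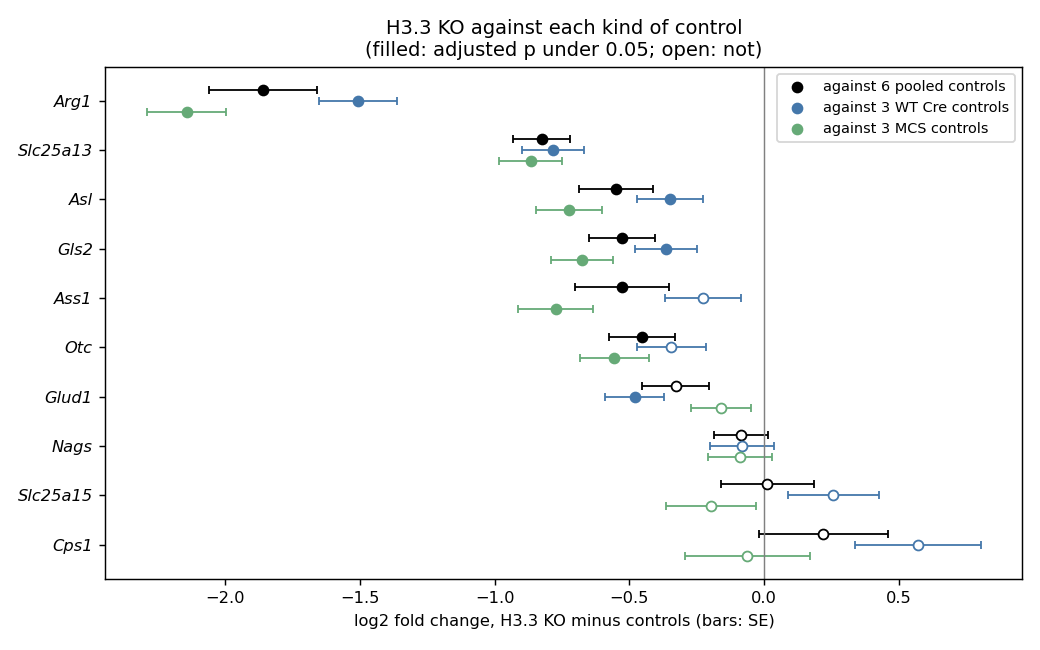
Log2 fold change of each gene in 4 H3.3 KO livers against the 6 pooled controls, the 3 WT Cre and the 3 MCS livers, with SE as bars and filled points for an edgeR adjusted p under 0.05. Arg1 and Slc25a13 lie farthest to the left in all 3 comparisons, and Cps1 and Slc25a15 lie on either side of 0 according to the control.

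Comparison of KO with WT Cre asks what the floxed alleles change when virus and Cre are shared, and comparison with MCS asks what Cre changes when the alleles are shared. Both use the same 4 KO livers and are not independent. The control columns of the count table were matched to the control kinds by the number in the library name, and every value given for 1 kind of control rests on that match. Against WT Cre, 5 genes were lower at an edgeR adjusted p under 0.05 (Arg1, Slc25a13, Glud1, Gls2 and Asl) and none was higher, with 13.1% of all genes lower and 15.3% higher. Against MCS, 6 genes were lower (Arg1, Slc25a13, Ass1, Asl, Gls2 and Otc) and none was higher, with 14.8% of all genes lower and 17.3% higher. At an unadjusted p under 0.05 there were 6 lower and 1 higher against WT Cre, beside 18.9% and 21.1% of all genes, and 6 lower and none higher against MCS, beside 20% and 22.4%.

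Arg1 fell against both, to 35.2% of WT Cre (log2 fold change -1.51 ± 0.145, edgeR adjusted p = 3.12e-05) and to 22.6% of MCS (-2.14 ± 0.146, adjusted p = 2.17e-06). Slc25a13 fell against both as well, with log2 fold changes of -0.78 ± 0.116 (edgeR adjusted p = 0.000513) and -0.87 ± 0.116 (adjusted p = 0.000215). The calls of Arg1, Slc25a13 and Glud1 against WT Cre held under every alternative and every left-out library.

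Asl and Gls2 passed against WT Cre by narrow margins, with log2 fold changes of -0.35 ± 0.122 and -0.36 ± 0.115 (edgeR adjusted p = 0.0499 and 0.0338). Both calls were lost on leaving out WT Cre 1, WT Cre 3, KO 2, KO 3 or KO 4, which left 3 of the 10 genes called. Asl was also lost without WT Cre 2 or any MCS liver, with other size factors and with other filters, and the replicate number as a block left 3 genes called. Against MCS the same genes were at -0.72 ± 0.122 and -0.68 ± 0.115 (edgeR adjusted p = 0.000930 and 0.000994).

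Ass1 and Otc passed against MCS only, which does not show that the comparisons differ. Ass1 had a log2 fold change of -0.77 ± 0.140 against MCS (edgeR adjusted p = 0.00146) and -0.23 ± 0.141 against WT Cre (adjusted p = 0.255). Otc had -0.56 ± 0.128 (edgeR adjusted p = 0.00603) and -0.34 ± 0.128 (adjusted p = 0.0631). The difference between the comparisons is that between the control kinds, and neither gene passed there, with edgeR adjusted p of 0.137 for Ass1 and 0.661 for Otc.

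Glud1 had the opposite order. Its log2 fold change was -0.48 ± 0.111 against WT Cre (edgeR adjusted p = 0.00701) and -0.16 ± 0.111 against MCS (adjusted p = 0.306). Cps1 was 0.57 ± 0.234 against WT Cre (edgeR adjusted p = 0.0881) and -0.061 ± 0.231 against MCS (adjusted p = 0.870). Without KO 1, the liver with the lowest Cps1 level, Cps1 was called higher than in WT Cre (log2 fold change 0.77, edgeR adjusted p = 0.000691).

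Slc25a15 was the only gene of which every KO liver was above every WT Cre liver, as 17.4% of all genes were, although its difference did not pass (log2 fold change 0.26 ± 0.169, edgeR adjusted p = 0.283). Against MCS it was -0.20 ± 0.167 (edgeR adjusted p = 0.406). In the other direction, every KO liver was below every WT Cre liver for 6 genes, as for 18.5% of all genes, and below every MCS liver for 7, as for 17.8%. Nags was near 0 in both, at -0.080 ± 0.119 and -0.089 ± 0.119 (edgeR adjusted p = 0.659 and 0.613).

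The control kinds were compared with each other, since they differ in both the virus and the floxed alleles. No gene of the 10 passed in edgeR, with 0.486% of all genes lower and 0.441% higher in WT Cre than in MCS. Yet 7 of the 10 were under an unadjusted p of 0.05, 6 lower and 1 higher in WT Cre, beside 5.17% and 5.51% of all genes. DESeq2 called Arg1 and Ass1 lower and Glud1 higher in WT Cre, beside 2.12% and 1.98% of the genes it gave an adjusted p. Every WT Cre liver lay below every MCS liver for 7 genes, as for 11.2% of all genes, and above for 1 (Glud1), as for 11%. Arg1 had the lowest adjusted p, at a log2 difference of -0.64 ± 0.156 (edgeR adjusted p = 0.0890), and it passed with the replicate block (adjusted p = 0.0321). Leaving out KO 1, which enters through the shared estimate of spread, brought Arg1, Ass1 and Cps1 past the threshold.

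Together the 10 genes took 1.06% ± 0.124 (SD, n = 6) of all counts in controls and 0.964% ± 0.119 (SD, n = 4) in KO livers. In KO livers the summed level was 7842 to 9658 CPM. It was 9115 to 10161 in WT Cre and 11770 to 14430 in MCS livers, so that KO overlapped with the first and not with the second.

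Levels of different genes were compared per length, as CPM per kilobase of the principal transcript. In controls the order was Ass1 (1788), Arg1 (991), Cps1 (583), Glud1 (403), Asl (244), Otc (218), Gls2 (151), Slc25a15 (93.1), Slc25a13 (74.8) and Nags (30.2). The ranges over the 6 livers did not overlap between Glud1 and Asl, between Otc and Gls2, or between Slc25a13 and Nags. All other neighbours overlapped. The SD was 427 for Ass1, 242 for Arg1 and 162 for Cps1. Per length of all annotated exons, a choice added after the data had been seen, Slc25a13 and Slc25a15 changed places in controls, and Asl and Otc did so in KO livers.

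In KO livers the order was Ass1 (1242), Cps1 (680), Glud1 (321), Arg1 (273), Asl (166), Otc (160), Gls2 (105), Slc25a15 (94.0), Slc25a13 (42.2) and Nags (28.6). Arg1 thus moved from rank 2 to rank 4, and it did so also per length of all annotated exons and in the deposited FPKM values. Its range of 236 to 344 overlapped with that of Glud1 (296 to 342) and no longer with that of Cps1 (382 to 864). Asl overlapped with Otc, and Gls2 with Slc25a15. The other neighbours did not overlap, Slc25a15 and Slc25a13 among them, which did in controls.

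**Figure D3:**
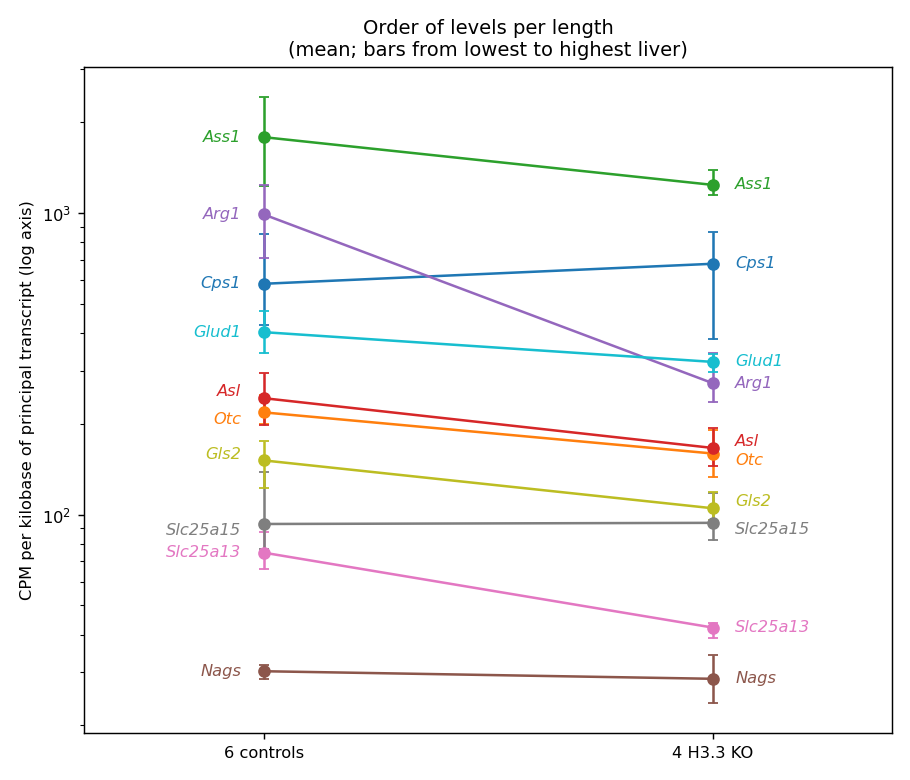
Mean level of each gene per kilobase of its principal transcript (CPM per kilobase, log axis) in 6 controls and 4 H3.3 KO livers, with bars from the lowest to the highest liver. The line of Arg1 crosses those of Cps1 and Glud1, from 991 in controls to 273 in KO livers.

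Pairs of the 10 genes were also set against each other within a liver. These pairs were chosen after their values had been seen and are given without a test. Cps1 had 1.81 to 2.64 times the CPM of Arg1 in the controls, and 4.17, 9.73, 12.1 and 13.8 times in KO 1 to KO 4. The ratio of Cps1 to Arg1 was thus higher in every KO liver than in any control, least so in KO 1. These ratios of CPM are not per length, so they show a shift between livers and not which gene was higher. Per kilobase, Arg1 had the higher mean in controls (991 against 583 for Cps1) and Cps1 in KO livers (680 against 273 for Arg1). Ass1 had 0.836 to 1.07 times the CPM of Cps1 in the controls, 1.12 times in KO 1 and 0.422 to 0.493 times in the other KO livers. Per kilobase, the mean of Ass1 was above that of Cps1 in controls (1788 against 583) and in KO livers (1242 against 680). The ornithine carrier Slc25a15 was at 1.10 to 1.73 times the aspartate carrier Slc25a13 in controls and at 2.11 to 3.32 times in KO livers.

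Several of the genes have a counterpart that does related work in other cells or tissues. The log2 ratio of a gene to its counterpart does not depend on how libraries are scaled. With 4 against 6 livers there are 210 splits, and 0.00476 is the smallest two-sided p that the exact permutation test can give. Of the 4 ratios given here, 3 reached it, and their p-values were adjusted over the 5 ratios tested. The ratios were chosen with earlier results of these data known. In each of the 3, Arg1, Slc25a13 or Glul by itself had every KO liver below every control. These p-values are thus not evidence apart from the falls of those genes.

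Arg2 is the mitochondrial arginase of tissues outside the liver. It gave 1 to 9 reads per control liver and 7 to 36 per KO liver (log2 fold change 1.80 ± 0.530, edgeR adjusted p = 0.0173). The log2 ratio of Arg1 to Arg2 was 11.8 to 14.9 in controls and 7.98 to 10.2 in KO livers (exact permutation p = 0.00476, adjusted 0.00595). In WT Cre 1 it rests on 1 read of Arg2, with an exact Poisson 95% interval of 12.4 to 20.2, and in WT Cre 3 and MCS 2 on 3 reads each (11.6 to 15.4 and 12.1 to 15.9). These intervals cover counting error only, and no size is given for this difference.

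Slc25a12 (aralar) is the aspartate carrier of muscle and brain. Its level was 12.0 to 13.2 CPM in KO livers and 13.7 to 17.3 in controls (log2 fold change -0.28 ± 0.0980, edgeR adjusted p = 0.0372). The fall of Slc25a13 was larger, and the log2 ratio of Slc25a13 to Slc25a12 was lower by 0.54 in KO livers (3.35 to 3.51 against 3.80 to 4.24, exact permutation p = 0.00476, adjusted 0.00595). Cad makes carbamoyl phosphate for pyrimidines in the cytosol. The ratio of Cps1 to Cad did not pass, with a log2 difference of 0.050 (exact permutation p = 0.833, adjusted 0.833) and controls from 7.72 to 8.70 around KO livers from 8.00 to 8.39.

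Glul, the glutamine synthetase of pericentral hepatocytes, works against Gls2. It fell to 38.7% of the control level (log2 fold change -1.37 ± 0.175, edgeR adjusted p = 8.14e-05), with 267 to 509 CPM in KO livers and 769 to 1138 in controls. Since Gls2 fell less, the log2 ratio of Gls2 to Glul was higher by 0.87 in KO livers (exact permutation p = 0.00476, adjusted 0.00595). It ran from -0.73 to -0.10 there and from -1.57 to -1.06 in controls. Of the remaining counterparts, the carrier gene Slc25a29 fell (log2 fold change -0.75 ± 0.196, edgeR adjusted p = 0.00934), and Slc25a2 gave 2 to 7 reads per liver and did not pass.

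**Figure D4:**
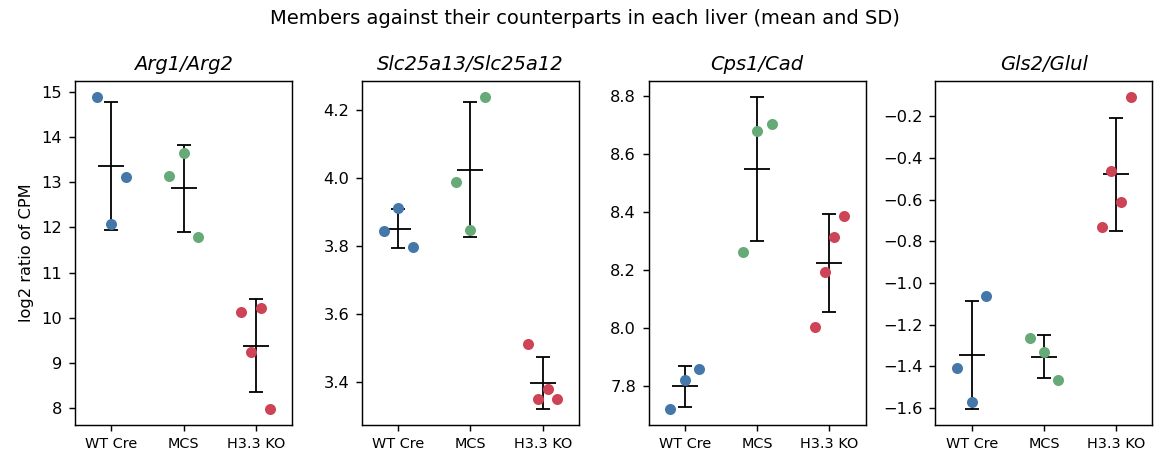
Log2 ratio of CPM of 4 pairs of a gene and its counterpart in each liver, with the mean and SD of each group as bars (the axes do not start at 0). The 4 KO livers lie apart from all 6 controls in every panel but that of Cps1 and Cad, and the Arg2 counts behind the first panel are 1 to 9 in controls.

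Promoters were looked up for the 10 genes among the RefSeq promoters of build GRCm38.p6, and 6 matched (Ass1, Glud1, Nags, Otc, Slc25a13 and Slc25a15). The 250 bases before the start are shown for the carrier with the largest fall, for an enzyme that fell with every KO liver below every control, and for one that did not pass. They lie at chr6:6217174-6217423 on the minus strand (Slc25a13), chrX:10252055-10252304 on the plus strand (Otc) and chr11:102145263-102145512 on the plus strand (Nags). Capitals mark the letters of searched motifs.
Slc25a13: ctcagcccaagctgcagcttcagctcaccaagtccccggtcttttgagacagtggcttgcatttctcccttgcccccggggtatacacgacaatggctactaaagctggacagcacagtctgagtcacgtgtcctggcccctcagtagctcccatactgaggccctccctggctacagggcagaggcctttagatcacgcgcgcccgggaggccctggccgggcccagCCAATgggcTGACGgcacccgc
Otc: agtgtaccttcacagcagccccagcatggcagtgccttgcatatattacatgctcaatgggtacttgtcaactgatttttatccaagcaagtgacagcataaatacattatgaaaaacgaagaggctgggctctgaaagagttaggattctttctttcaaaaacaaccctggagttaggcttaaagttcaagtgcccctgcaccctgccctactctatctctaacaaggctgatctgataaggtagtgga
Nags: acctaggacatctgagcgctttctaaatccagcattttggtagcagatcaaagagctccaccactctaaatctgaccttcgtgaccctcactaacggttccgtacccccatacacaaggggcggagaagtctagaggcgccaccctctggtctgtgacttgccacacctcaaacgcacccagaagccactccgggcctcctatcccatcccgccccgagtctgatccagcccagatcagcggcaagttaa

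The motifs searched on both strands were CAAAGTCCA or CAAAGGTCA (HNF4), TTGCNNAA (C/EBP), TGACGTCA (a full cAMP response element) and its shorter form TGACG, which is part of the full element. The CCAAT box and the TATA box, with the letters TATAAA, were searched as well. In this order, these 6 motifs were found in 0.807%, 9.56%, 1.55%, 17.8%, 33.8% and 12.4% of all 32851 promoters of this length. Of the 6 genes matched, Slc25a13 alone held any, with TGACG from -13 to -9 and the CCAAT box from -22 to -18 before its start. The windows differed in base composition. The GC content was 62.8% for Slc25a13, 43.6% for Otc and 55.6% for Nags, beside a median of 52.4% over all promoters, and the observed over expected CpG was 0.454, 0.0843 and 0.613 beside 0.374. The Otc window was thus below the median promoter in both measures and the other windows above it.

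Other genes of nitrogen metabolism were counted in KO against the pooled controls, beside 16.6% lower and 19.7% higher over all genes. Of 22 genes around the supply of nitrogen and bicarbonate to the cycle, not all of them suppliers, 10 were lower and 2 higher (median log2 fold change -0.37). Car5a, the mitochondrial carbonic anhydrase that gives Cps1 its bicarbonate, fell by 1.63 in log2 units (edgeR adjusted p = 0.00337). Slc7a2, an importer of arginine and other cationic amino acids, fell by 1.44 (edgeR adjusted p = 0.000253), and Amdhd1, of histidine breakdown, by 1.49 (adjusted p = 3.74e-05). Asns, the asparagine synthetase, rose by 2.14 (edgeR adjusted p = 0.00891), though at 0.195 to 3.98 CPM in KO livers its groups overlapped.

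A list of 15 genes around arginine and ornithine, which includes proline synthesis and an importer, held more calls in the other direction. Of these genes, 8 were higher and 3 lower (median log2 fold change 0.24). Their summed level did not rise, at 674 to 916 CPM in KO livers and 734 to 1559 in controls. Those that make proline from glutamate rose, Pycr1 by 2.12 and Aldh18a1 by 1.96 in log2 units (edgeR adjusted p = 0.000731 and 5.11e-05). The arginine importer Slc7a1 rose by 1.84 (edgeR adjusted p = 0.00445), though its groups overlapped, with 0.912 CPM in KO 1 and 1.59 in WT Cre 3. Pycr1, Aldh18a1 and Slc7a1 were low, with group means of 0.260 to 1.04 CPM in controls and 1.15 to 4.00 in KO livers. Nos2, which makes nitric oxide from arginine, was among the 8 with 0 to 2 reads per control liver and 1, 23, 9 and 6 reads in the KO livers, and no fold is given for it.

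Both zones of the lobule had lower genes. Of 18 other periportal genes, 11 were lower and 2 higher (median log2 fold change -0.70), beside 16.6% and 19.7% of all genes. Sds, of serine breakdown, fell by 1.94, G6pc, of glucose release, by 1.71 and Pigr, the receptor that carries immunoglobulin into bile, by 1.44 in log2 units, whereas the adhesion gene Cdh1 rose by 2.84 (edgeR adjusted p from 4.09e-05 to 0.000658). Of 15 pericentral genes, 7 were lower and 1 higher (median -0.73). Cyp2e1, of ethanol and drug oxidation, fell by 1.54 in log2 units, and the ammonia channel gene Rhbg rose by 1.55 (edgeR adjusted p = 6.73e-05 and 0.000506). With the median of the 10 genes at -0.49, the medians of both zones were below it, and no difference between zones was tested.

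Among 12 regulators of these genes, 6 were lower and none higher in edgeR or DESeq2, beside 16.6% of all genes lower in each. At an unadjusted p under 0.05, 7 were lower and none higher, beside 21.3% of all genes lower (median log2 fold change -0.39). Foxa2, Ppargc1a, Gcgr and Klf15 act in the hormonal control of liver metabolism. They fell by 1.08, 1.00, 0.65 and 0.55 in log2 units (edgeR adjusted p = 0.00235, 0.000802, 0.00392 and 0.0283). Hnf4a had a log2 fold change of -0.55 and did not pass (edgeR adjusted p = 0.0763).

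**Figure D5:**
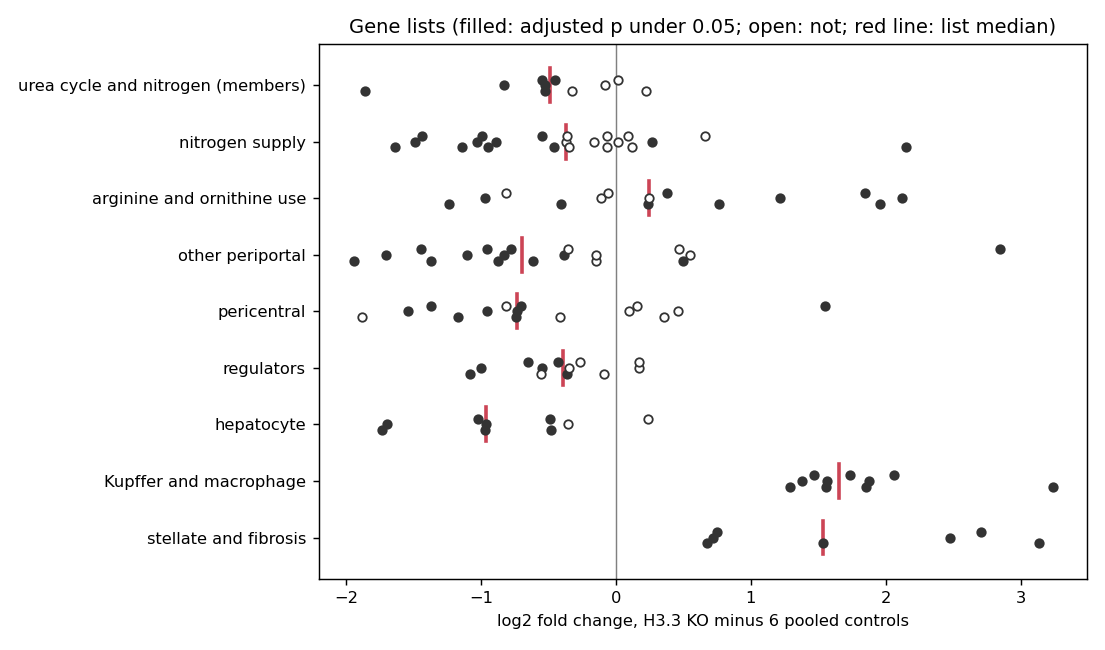
Log2 fold change in 4 H3.3 KO against 6 control livers for each gene of 9 lists (points, filled for an edgeR adjusted p under 0.05) and the median of each list (red line), without Nos2, which was near 0 reads in controls. The medians are -0.49 for the 10 genes, -0.96 for hepatocyte, 1.65 for Kupffer cell and 1.53 for stellate cell markers.

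Cell type markers moved with the KO as well. Over all genes, 16.6% were lower and 19.7% higher in edgeR, and 16.6% and 20.5% in DESeq2. At an unadjusted p under 0.05 these shares were 21.3% and 24%. Of 9 hepatocyte markers, 7 were lower and none higher in edgeR (median log2 fold change -0.96), also at an unadjusted p under 0.05, and DESeq2 called 1 higher. All 10 Kupffer cell and macrophage markers were higher (median 1.65), with a summed level of 480 to 1056 CPM in KO livers and 204 to 392 in controls. All 7 markers of stellate cells and fibrosis were higher (median 1.53, summed level 442 to 709 against 177 to 218 CPM), as were 4 of 5 genes of cell division and 1 of 5 cholangiocyte markers. None of 5 endothelial markers passed in edgeR or DESeq2, 4 were higher at an unadjusted p under 0.05, and the summed level was 153 to 272 CPM in KO livers and 140 to 183 in controls. No marker was at 0 in any liver, and the part of these cells in the lower levels of the urea cycle genes was not tested.

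By a rule on likeness, 5 genes were named whose log2 CPM followed the mean of Cps1, Otc, Ass1, Asl and Arg1 most closely over the 10 livers, out of 7919 genes with a mean of at least 10 CPM. They were Mup17, Arhgap5, Inpp4a, Aass and Mindy3, with Pearson r of 0.987, 0.985, 0.983, 0.976 and 0.976. The livers form 3 groups and share their libraries' scaling, so these r are a description only. After centring each gene on its mean over livers, Arg1 varied most of the 5 enzymes, from -1.30 to 1.10 in log2 units. Cps1 went the other way in KO 2 to KO 4, at 0.25, 0.35 and 0.53 where the mean was -0.35, -0.40 and -0.43. The r thus do not describe each of the 5 enzymes. Mup17 belongs to a family of near-identical genes among which reads may have been split, and its mean of 1.44 CPM in KO livers against 97.3 in controls is uncertain for that reason.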

How the data were processed

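RNA-seq of whole liver was available for 4 H3.3 KO, 3 WT Cre and 3 MCS mice. The authors aligned reads to mm10 with STAR. The paper names HOMER for the counting and the labels list HTSeq and Cufflinks. The deposited counts are whole reads per gene for 55421 identifiers, without normalization. The deposited FPKM values (fragments scaled to transcript length and depth by the authors) left 268042 cells blank, read as 0, none of them in the 10 genes. A blank did not always mean a gene without reads. Car5a was blank in all 10 libraries at 211 to 1922 counts, and Hnf4a was blank in 7. Shares of all genes from limma on FPKM values are uncertain for that reason.

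KO columns were matched by the replicate number in the titles and control columns by the number in the library names. Genes with at least 10 counts over the 10 libraries were kept. Genes were tested in edgeR 4.0.16 under R 4.3.3 by its two-sided quasi-likelihood test (TMM, robust, no covariate), adjusted by Benjamini-Hochberg over all 22449 genes. A fit of 2 groups compared KO with the pooled controls, and a fit of 3 groups the kinds of control. The SE was taken as the absolute log2 fold change over the root of the F statistic. Groups are given as mean ± SD. Single ratios were compared by exact permutation tests in scipy 1.17.1, and 1 of the 5 ratios and 2 genes of the lists are not reported here. Called genes had an adjusted p under 0.05. In edgeR the p-values set a group difference against the spread between these livers, estimated in part over all genes. The permutation p is the share of splits with a difference at least as large.

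Counts of the 10 genes ran from 1063 to 125432 per library. To look for a library deposited more than once, replicates were compared by their counts, and the chi-square per degree of freedom was 11.5 to 109, where such a copy would give about 1 or less. This says nothing else about the spread of livers. In simulated counts for KO against controls over 22449 genes, 45 of 50 genes at a log2 fold change of -1.5 were recovered, 24 of 50 at -0.8, 8 of 50 at -0.5 and 32 of 50 at 0.8. No other genes were changed there, whereas 16.6% of all genes were called lower and 19.7% higher in the data. The adjustment was thus stricter in the simulation, and its shares do not give the power of the comparison here. Alternatives were other size factors, other filters, DESeq2 1.42.0, limma 3.58.1 on log2(FPKM + 1) and log2(FPKM + 0.1), a replicate block and leaving out each library. Gene models came from GENCODE M21 (mm10), and length per all exons was added after the data had been seen. The genes, lists and tests were chosen with earlier results of these data known. Named are the 10 genes, their counterparts, up to 4 called genes with the largest change per list and the 5 closest genes by correlation.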

Additional observations from a re-analysis of the deposited data

Results flagged for a closer look

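The 10 genes and 5 ratios were searched for a liver far from its group, in the 4 KO livers and in the 6 controls, by Dixon's criterion, which marks about 1 in 20 groups by chance. Of the 30 groups searched 2 were marked, and both concerned the ornithine carrier Slc25a15. KO 4 had 406 CPM, and its gap to the next KO liver was 0.864 of the range of the KO group. MCS 3 had 475 CPM, and its gap to the next control was 0.703 of the range of the 6 controls. Without KO 4 the log2 fold change of Slc25a15 in KO against the pooled controls was -0.12, and it did not pass either way.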

How the results depend on the processing

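The calls of Arg1 and Slc25a13 in KO against the pooled controls, WT Cre and MCS held under every alternative run, with log2 fold changes from -2.28 to -1.40 for Arg1 and from -0.94 to -0.59 for Slc25a13. Against the pooled controls, 4 to 7 genes were lower under all alternatives. Over all genes, 2059 of 22449 were lower with limma on log2(FPKM + 1), where blank cells were read as 0, and 4205 of 22192 without KO 1. Against WT Cre, 5 were lower, and 3 were lower with library size only, with limma on log2(FPKM + 1), with limma on log2(FPKM + 0.1) and with the replicate block, Asl and Gls2 being lost each time. Leaving out 1 library gave 3 (without WT Cre 1, WT Cre 3, KO 2, KO 3 or KO 4) to 6 (without KO 1) lower and 0 to 1 higher, the latter Cps1 without KO 1. For WT Cre against MCS, 1 gene was lower with no filter and with the replicate block, 2 were lower and 1 was higher with DESeq2, and leaving out 1 library gave 0 to 3 lower, the 3 being without KO 1. The cause was not tested.

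Genes near 0 changed sign. Nags in KO against the pooled controls had log2 fold changes of 0.0869 with library size only, 0.103 with log2(FPKM + 1) and 0.106 with log2(FPKM + 0.1). In the same order it had 0.0226, 0.0264 and 0.0271 against WT Cre, 0.154, 0.179 and 0.185 against MCS, and 0.131, 0.153 and 0.158 in WT Cre against MCS, where it was 0.00714 with no filter and -0.0400 to 0.0314 on leaving out 1 library. Against MCS, the same 3 settings gave 0.208, 0.172 and 0.172 for Cps1, 0.0669, 0.0671 and 0.0679 for Slc25a15, and 0.0913, 0.124 and 0.124 for Glud1. For Slc25a13 in WT Cre against MCS they gave 0.0607, 0.0875 and 0.0889. On leaving out 1 library, Slc25a13 ran from -0.154 to 0.0240 there, Cps1 against MCS from -0.196 to 0.136 and Slc25a15 against MCS from -0.321 to 0.0274. Slc25a15 against the pooled controls ran from -0.118 to 0.161 and was -0.105 with the replicate block. The log2 difference of Cps1 to Cad ran from -0.0408 to 0.156. Library size alone moved the median of all genes by 0.175 and the share of higher calls from 54.3% to 72.2%. The limma settings, with blank FPKM cells read as 0, gave 69.7% and 69.1%.

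Pairing of the livers by replicate number was looked for by correlation, which cannot exclude it. Over 9 pairs with the same number, the correlation of deviations from the group means was -0.0387 to 0.111, with 1 pair over 0.1. With the block, 4 genes were lower against the pooled controls, Ass1 and Otc being lost.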

Other observations

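The libraries KO 4 and MCS 3 shared further high values among the genes of nitrogen metabolism, a pattern noticed after the values had been seen and not tested. The 32 genes looked at were the 10 genes and the 22 around nitrogen supply. Of these, 8 had KO 4 as the highest KO liver and MCS 3 as the highest control, namely Cps1, Slc25a15, Got1, Fh1, Slc38a2, Slc7a2, Slc25a22 and Asns. The share of all genes with this pattern was not counted, so it is not shown to be particular to these genes. The cytosolic aspartate aminotransferase Got1 was at 469 CPM in KO 4 and 133 to 194 in the other KO livers, and at 451 in MCS 3 and 125 to 305 in the other controls. The glutamate carrier Slc25a22 was at 333 CPM in KO 4 against 148 to 155, and at 475 in MCS 3 against 186 to 240. Over all genes, the deviations of these 2 libraries from their group means had the highest correlation of the 33 pairs of livers from different groups, at r = 0.19.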
